A study of Mus musculus with 2 samples.

Results

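Hmgcs1, Fdps, Sqle and Msmo1 encode enzymes of cholesterol biosynthesis, and the signals of all 4 were lower on the high-glucose diet than on the control diet. They were found by gene symbol in the authors' deposited comparison of the diets, where Msmo1 stands under its older symbol Sc4mol. Each is represented by 1 probe set in that comparison, so the description covers 4 of the 1559 genes named there and 4 of the 22690 probe sets on the array. Probe sets outside that comparison could not be given a gene name here, so any others for these genes were not looked at. Relative to the array-wide shift explained below, their levels were between 3.59-fold and 5.46-fold lower on high glucose. The genes were chosen with these signals in view, so every value given for them is a description and carries no test.

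The study compared male C57BL/6J mice on a high-glucose diet (HGD, 20% glucose) with mice on regular chow (AIN76). In both groups the animals entered the study at 4 weeks of age, had 2 weeks to acclimate, ate their diet for 4 weeks and were 10 weeks old at sampling. Total RNA of tissue labelled jejunum, the part of the small intestine after the duodenum, was hybridised to 1 Affymetrix array per diet. No replicate exists, the sources used here do not give the number of animals behind an array, and the diet cannot be told apart from differences between animals or hybridisations.

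Cells build cholesterol from acetyl-CoA through mevalonate, isoprenoid pyrophosphates, squalene and a series of sterol intermediates. When sterols in the endoplasmic reticulum run low, the transcription factor encoded by Srebf2 is released by proteolysis, moves to the nucleus and binds sterol regulatory elements in the promoters of the pathway's genes, often together with NF-Y at CCAAT boxes and Sp1 at GC-rich boxes. The small intestine both makes cholesterol and takes it up from the lumen, and liver is the other major site of synthesis.

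The promoters of Hmgcs1 and Msmo1 are shown because these genes were lower together on high glucose and because the pathway is known for sterol regulatory elements. Sequences are RefSeq's on GRCm38.p6, from 250 bases before to 50 bases after the annotated start, and 2 of the 4 genes, Hmgcs1 and Msmo1, were matched by symbol. The Hmgcs1 window is chr13:119690101-119690400 on the plus strand and the Msmo1 window is chr8:64733529-64733828 on the minus strand, each printed 5′ to 3′ in the direction of the gene. Capitals mark CACNCCAC, the core of a sterol regulatory element, and CCAAT or its reverse complement ATTGG.
Hmgcs1: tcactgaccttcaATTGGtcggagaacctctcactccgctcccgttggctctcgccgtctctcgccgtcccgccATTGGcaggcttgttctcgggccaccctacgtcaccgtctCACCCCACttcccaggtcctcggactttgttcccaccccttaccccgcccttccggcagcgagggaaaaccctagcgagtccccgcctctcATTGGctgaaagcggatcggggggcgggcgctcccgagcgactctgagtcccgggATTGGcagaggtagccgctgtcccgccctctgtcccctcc
Msmo1: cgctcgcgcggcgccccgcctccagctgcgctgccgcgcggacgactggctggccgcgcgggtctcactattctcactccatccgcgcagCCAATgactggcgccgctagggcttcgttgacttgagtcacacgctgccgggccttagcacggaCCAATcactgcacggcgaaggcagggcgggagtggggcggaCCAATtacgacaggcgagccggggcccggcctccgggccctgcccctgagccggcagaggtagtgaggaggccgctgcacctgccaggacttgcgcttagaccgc

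Hmgcs1 held 1 match to the longer motif TCACNCCAC, whose first base lies 137 bases before the start. That motif contains CACNCCAC, so the single core match is the same place. On both strands, TCACNCCAC occurs in 1.24% and CACNCCAC in 6.24% of the 32851 RefSeq promoters of this length. The Msmo1 window held 0 matches to either, which says only that these letters are not in it. CCAAT occurred 4 times in the Hmgcs1 window, always on the opposite strand, and 3 times in the Msmo1 window on the gene's strand. The Sp1-type box GGGCGG occurred 3 times in Hmgcs1 and 2 times in Msmo1, and the E-box CACGTG in neither. CCAAT is found in 37.4%, GGGCGG in 35.7% and CACGTG in 7.15% of all these promoters, and a match of letters is not evidence of binding.

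The arrays differed in overall level. The median MAS5 signal, Affymetrix's single linear value for a probe set in arbitrary units, was 7.9 on the high-glucose array and 13.1 on the control array. Probe sets whose mean log2 signal reached the median of the array are called expressed, and over these 11315 probe sets the median log2 ratio of high-glucose over control was -0.97, a level 1.96-fold lower. This array-wide shift is taken off each log2 ratio to give the relative log2 ratio. The authors' deposited table gives a separate measure for 1625 probe sets, the signal log ratio or SLR, which sets the high-glucose diet against control in log2 units. The sources used here do not give how these probe sets were selected or scaled.

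Hmgcs1, the first step of the pathway named in the authors' deposited comparison, is the cytosolic synthase that joins acetoacetyl-CoA and acetyl-CoA into HMG-CoA. HMG-CoA is the substrate of the reductase that statins inhibit. The signal of Hmgcs1 was 62.3 on the high-glucose array, against 438.3 on the control array. That is a 7.04-fold lower signal as deposited, where 47.7% of expressed probe sets were lower by 2-fold or more, and a relative log2 ratio of -1.84, or 3.59-fold lower beyond the shift. Hmgcs1 was the least lowered of the 4 genes.

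Fdps, farnesyl diphosphate synthase, condenses the isoprenoid units into farnesyl pyrophosphate, which feeds sterols and also protein prenylation, ubiquinone and dolichol. Fdps had a signal of 48.8 on the high-glucose array, against 522.5 on the control array. It was 10.7-fold lower as deposited, and its relative log2 ratio of -2.45 was the lowest of the 4 genes.

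Sqle, squalene epoxidase, puts the first oxygen onto squalene and is regarded as a rate-limiting step of the sterol branch. It was the dimmest of the 4 probe sets on both arrays, with a signal of 14.3 on the high-glucose array, against 133.2 on the control array. Its relative log2 ratio was -2.25, a 4.75-fold lower level beyond the shift. The high-glucose signal of Sqle still lay above that array's median of 7.9.

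Msmo1, the methylsterol monooxygenase, starts the removal of methyl groups from sterol intermediates made after lanosterol. Its signal was 100.6 on the high-glucose array, against 1004.8 on the control array. The relative log2 ratio was -2.35, a 5.09-fold lower level. All 4 signals lay above 2.9, the floor to which lower signals were raised before a ratio was taken.

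**Figure D1:**
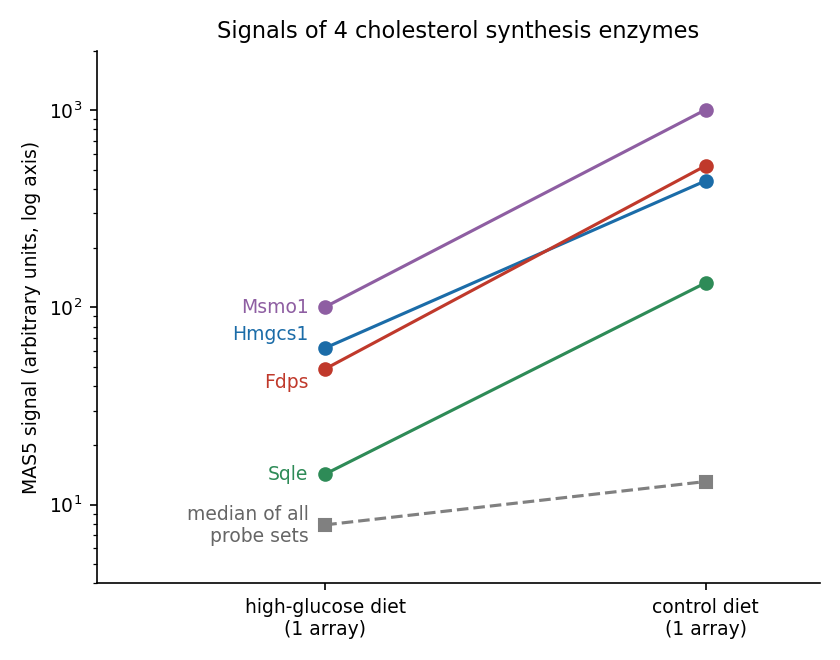
MAS5 signals (log axis) of Hmgcs1, Fdps, Sqle and Msmo1 on the high-glucose array and the control array, 1 array each, with the median of all probe sets dashed. Each gene's line is steeper than the dashed one, which joins 7.9 on the high-glucose array and 13.1 on the control array.

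The genes also moved down within the order of their own array, a measure that needs no scaling. Msmo1 stood at percentile 91.1 of all probe sets on the high-glucose array, against 97.9 on the control array. Hmgcs1 stood at 87.2 on the high-glucose array and 95.0 on the control array, and Fdps at 84.9 and 95.8 in the same order. Sqle had the widest gap, with percentile 65.1 on the high-glucose array and 87.3 on the control array. Percentiles compress near the top of an array, so these gaps do not rank the genes by size of change.

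Among the 11315 expressed probe sets, Fdps had the 76th lowest relative log2 ratio, Msmo1 the 81st, Sqle the 86th and Hmgcs1 the 109th. A relative level at least 2-fold lower, which all 4 genes had, was found in 4.97% of expressed probe sets and in 5.34% of the 1067 expressed named genes. Both such a level and a negative SLR, which all 4 genes also had, were found in 4.03% of expressed named genes. Because the genes were chosen from this contrast, nothing is read from these shares. Of the 18 named genes at or below Hmgcs1, 4 were the genes described here. Below Fdps lay 11 named genes, of which 6 were on the list of pancreatic acinar genes, such as Clps, the colipase that anchors pancreatic lipase. In 3 of the 11 the high-glucose signal was under the floor, so their ratios are bounds.

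**Figure D2:**
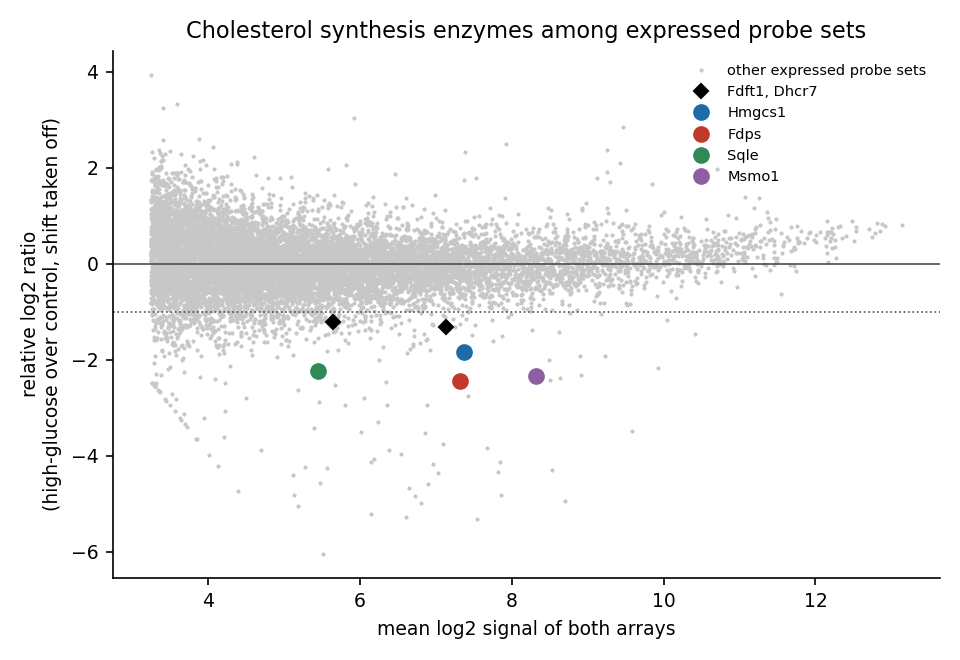
Relative log2 ratio of each expressed probe set (high-glucose over control, y axis) against its mean log2 signal on both arrays (x axis), with the shift at 0 and 2-fold lower dotted. Hmgcs1, Fdps, Sqle and Msmo1 lie between -2.45 and -1.84, below the bulk of probe sets of like brightness, and Fdft1 and Dhcr7 (diamonds) lie at -1.32 and -1.23.

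Spread among the 4 genes was small. The relative log2 ratios of Fdps and Msmo1 differed by 0.10 and those of Fdps and Sqle by 0.20, whereas Hmgcs1 was 0.61 above Fdps. The only repeat measurement within these arrays is another probe set of the same gene. Among the expressed probe sets of the authors' deposited table, 21 genes had such a pair, and the difference within it had an SD of 0.48. Fdps, Msmo1 and Sqle therefore differed by less than that SD. Hmgcs1 differed from Fdps by more, but from Sqle by less, at 0.40, so it is not set apart from all the others. This SD covers probe sets and not animals.

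The authors' deposited table also listed the 4 genes as lower on high glucose, by much smaller amounts. Its SLR was -0.8 for Sqle, -0.7 for Fdps, -0.4 for Msmo1 and -0.3 for Hmgcs1, that is between 1.74-fold and 1.23-fold lower. A negative SLR is common in that table, at 64.0% of its probe sets, and the median SLR of the whole table was -0.4. Msmo1 and Hmgcs1 were thus at or above that median, and Sqle and Fdps below it. In both sources Hmgcs1 was the least lowered, while the lowest was Fdps by signal and Sqle by SLR.

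The log2 ratio of the signals lay further below the SLR for these genes than for most. For the 4 genes the log2 ratio of the signals as deposited lay between 2.92 (Msmo1) and 2.42 (Sqle) below the SLR that the authors' deposited table gives. Over the 1110 expressed probe sets of that table the log2 ratio minus the SLR ran from -7.00 to 2.96, with a median of -0.77. Of these, 58 (5.23%), these 4 included, were at or below the -2.42 of Sqle. That share covers the low side only. Nothing is read from it, because the genes were chosen with their signals in view. For these 4 genes the sources thus gave the same direction and unlike sizes. The shared direction adds little, because a negative SLR is common, at 64.0% of the probe sets in the authors' deposited table. Among the 57 expressed named genes lowered 2-fold or more beyond the shift, 43 had one. For some other genes the sources gave opposite signs. The liver gene Plg had a log2 ratio of the signals as deposited of -0.99 and an SLR of 4.2. The HDL receptor Scarb1 had -1.47 and 3.8 in the same order. Which source is nearer to the RNA content cannot be settled from these files.

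**Figure D3:**
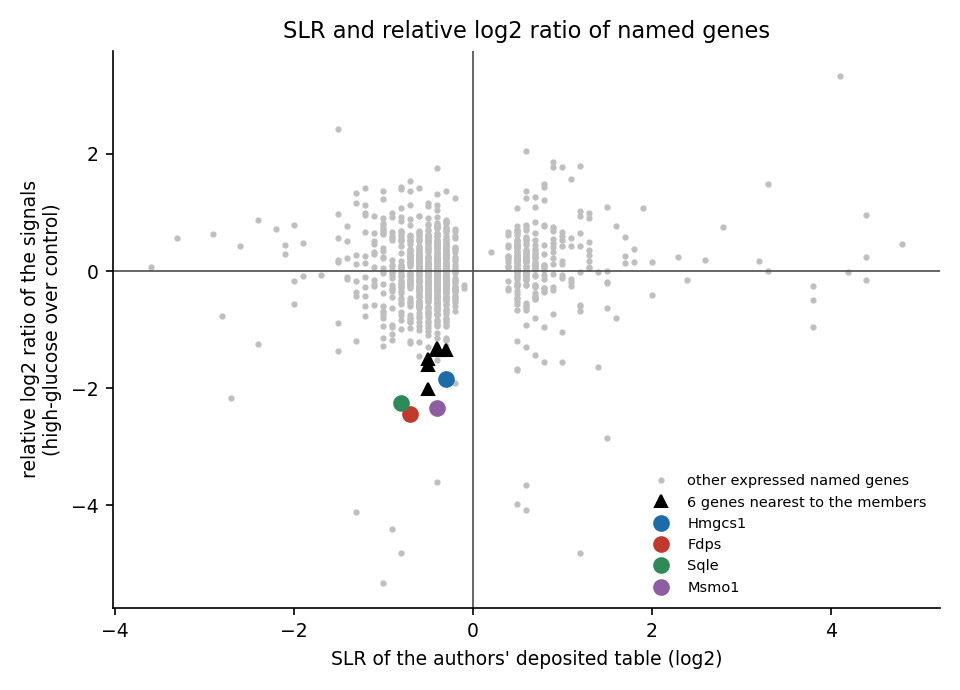
Relative log2 ratio of the signals (y axis) against the SLR of the authors' deposited table (x axis) for the expressed named genes. Hmgcs1, Fdps, Sqle and Msmo1 sit in the lower left, at SLR values from -0.8 to -0.3, and triangles mark the 6 genes nearest to them.

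Of 21 genes considered here for cholesterol biosynthesis, the comparison table names 6, and the other 15 are unnamed here, which says nothing about how they behaved. All 6 counted as expressed, and each was lower than the shift by 1.5-fold or more, as were 13.7% of expressed named genes. Their median relative log2 ratio was -2.05, against -0.01 over all expressed named genes, and 4 of the 6 had been chosen on this contrast. The 2 genes not yet described were lower by less. Fdft1, squalene synthase, which commits farnesyl pyrophosphate to sterols, had a signal of 63.4 on the high-glucose array, against 309.8 on the control array, and a relative log2 ratio of -1.32.

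Dhcr7, which makes cholesterol in the last step of the Kandutsch-Russell branch, had a signal of 23.3 on the high-glucose array, against 107.0 on the control array, and a relative log2 ratio of -1.23. Fdft1 lay 0.53 above Hmgcs1, slightly more than the SD between probe sets of a gene. The lower levels thus ran from the first named step, Hmgcs1, to Dhcr7 at the end, with no steady trend along the pathway. Their SLR values in the authors' deposited table were -0.4 for Fdft1 and -0.7 for Dhcr7.

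**Figure D4:**
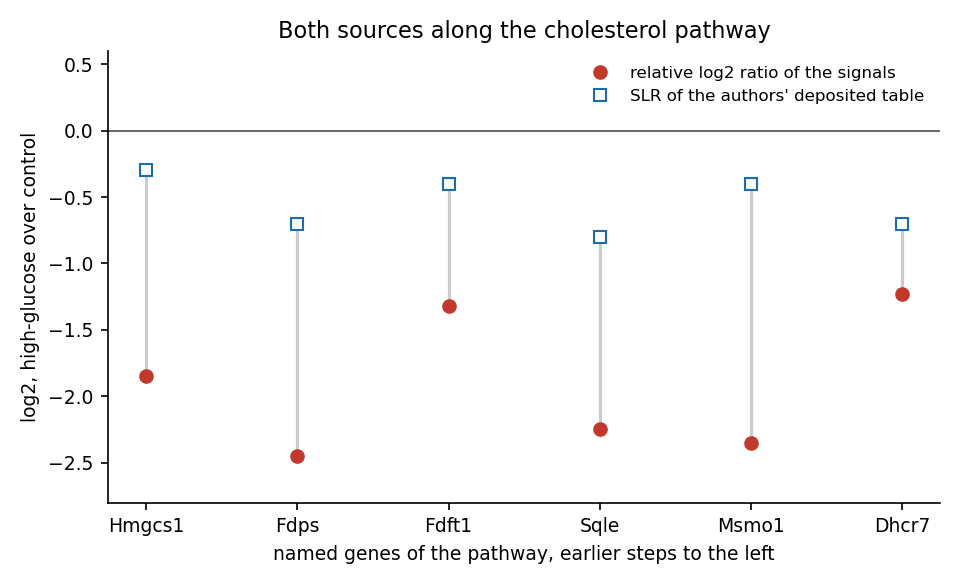
Relative log2 ratio of the signals (filled circles) and SLR of the authors' deposited table (open squares) for the 6 genes of cholesterol biosynthesis described here, earlier steps to the left. All values of both sources are below 0, and the gap between the sources is widest for Msmo1.

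Of 23 genes considered here that sense, take up, store or export sterols, 4 were named and all 4 counted as expressed, with a median relative log2 ratio of -0.43, and 1 of the 4 was 1.5-fold lower or more. That gene was Abca1, the transporter that passes cholesterol to apolipoprotein A-I. Its signal was 151.3 on the high-glucose array and 466.6 on the control array, a relative log2 ratio of -0.65. Scarb1, the HDL receptor, stood at a relative log2 ratio of -0.50, although the authors' deposited table gives it an SLR of 3.8.

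Srebf1, whose products act mainly on fatty acid genes, had a signal of 68.4 on the high-glucose array and 173.4 on the control array, a relative log2 ratio of -0.37. Soat2, which esterifies cholesterol in enterocytes and hepatocytes, lay at the shift with -0.02. The authors' deposited table gives an SLR of -1 for Srebf1, -0.4 for Abca1 and -0.2 for Soat2. By SLR, Srebf1 was thus below Hmgcs1, Fdps, Sqle and Msmo1. Of 9 genes for isoprenoid branches that use the product of Fdps, 0 were named.

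Among 13 genes for acetyl-CoA supply and fatty acid synthesis, 7 were named, 6 expressed and 4 lower than the shift by 1.5-fold or more, with a median relative log2 ratio of -0.67. Acly, which supplies cytosolic acetyl-CoA to both pathways, stood at -1.34 and the fatty acid synthase Fasn at -1.18. The elongase Elovl6 was at -0.32 and the desaturase Scd1 at -0.16. These relative log2 ratios were nearer to the shift than those of the 4 cholesterol enzymes, but the SLR did not set the lists apart in that way. The authors' deposited table lists all 7 named genes below 0, at a median SLR of -0.6, and Fasn at -0.9 was below each of the 4 enzymes.

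Expressed named genes with a control signal over 50 were also ranked by how close they lay to the median of the 4 genes in relative log2 ratio and SLR together, with 624 candidates and the distance in log2 units. The nearest was Cpeb4, a cytoplasmic polyadenylation element binding protein, at a distance of 0.29. It had a signal of 27.1 on the high-glucose array and 214.8 on the control array. The 4 genes themselves lay 0.16 to 0.52 from their median. Next came Wdr26 at 0.70, Cks1b at 0.80, Acly at 0.97, the long noncoding RNA Tug1 at 0.99 and Fdft1 at 0.99. With 1 array per diet, likeness here rests on a pair of measures and on no variation over samples.

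Markers of cell types were read beside these results, because fewer cells of a type and less RNA per cell cannot be told apart in whole tissue. Pancreatic acinar genes were lower on the high-glucose array too, with 6 of 14 listed genes named and all 6 lower than the shift by 2-fold or more. Their summed signal was 109.9 on the high-glucose array and 4489.2 on the control array, with none at 0. In the authors' deposited table the sign was divided. The SLR was above 0 for 3 of the 6, Clps at 1.2, Rnase1 at 0.6 and Zg16 at 0.5. It was below 0 for the other 3, Cela3b at -0.8, Try4 at -1.3 and Reg1 at -0.9. The part of the lower acinar signals in the lower cholesterol enzymes was not tested. The summed signal of the 4 cholesterol enzymes was 226.0 on the high-glucose array and 2098.8 on the control array.

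The label jejunum was checked with 16 enterocyte genes, of which 7 were named and 3 lay above the 90th percentile on each array. These 3 were Fabp2, Apoa1 and Apob, of which Apoa1 and Apob are also made by liver. Of the 7, 1 on the high-glucose array and 2 on the control array were below the median. Slc5a1 was below it on both, at 0.8 on the high-glucose array, under the floor, and 4.6 on the control array. The summed enterocyte signal was 9380.8 on the high-glucose array and 11267 on the control array, most of it from Apoa1. Relative to the shift, 4 of the 6 expressed enterocyte genes were higher by 1.5-fold or more and 0 lower. Among all expressed named genes, 13.7% were higher by that much. The median relative log2 ratio of the 6 was 0.98. Of the 4 higher genes, Ace and Mep1a were dim. Ace had a signal of 16.7 on the high-glucose array and 14.9 on the control array, and Mep1a 13 and 7 in the same order. Of the 7 named, 4 had an SLR above 0 in the authors' deposited table, as had 585 of its 1625 probe sets. Of 8 named goblet and Paneth cell genes, 0 were above the 90th percentile, and 6 on the high-glucose array and 7 on the control array were below the median, with summed signals of 43.6 and 73.8 in the same order. All 8 had an SLR above 0 in the authors' deposited table.

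Of 14 liver genes 2 were named, Plg and Serpina1a, and both lay above the 90th percentile on each array, with summed signals of 6059.3 on the high-glucose array and 9036.9 on the control array. Plg stood at a relative log2 ratio of -0.02 and Serpina1a at 0.65, and their SLR values in the authors' deposited table were 4.2 and 1.2 in the same order. As deposited both signals were lower on the high-glucose array, at 1994.0 against 3968.3 on the control array for Plg. High signals of these liver genes and low signals of goblet and Paneth genes go against a plain reading of the label, and the tissue of the arrays is therefore given only as labelled. The 7 B cell genes had signals under 10 on both arrays, with sums of 18.7 on the high-glucose array and 26.4 on the control array, yet the authors' deposited table lists all 7 below 0, at a median SLR of -3.7. The 6 smooth muscle genes summed to 30.1 on the high-glucose array and 46.0 on the control array, and the 2 named genes of proliferating cells to 7.9 and 6.3 in the same order. In the authors' deposited table all 6 smooth muscle genes had an SLR above 0 and both genes of proliferating cells one below 0. Many of these marker signals lay at or under the floor, and the part of these cell types in the lower cholesterol enzymes was not tested.

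**Figure D5:**
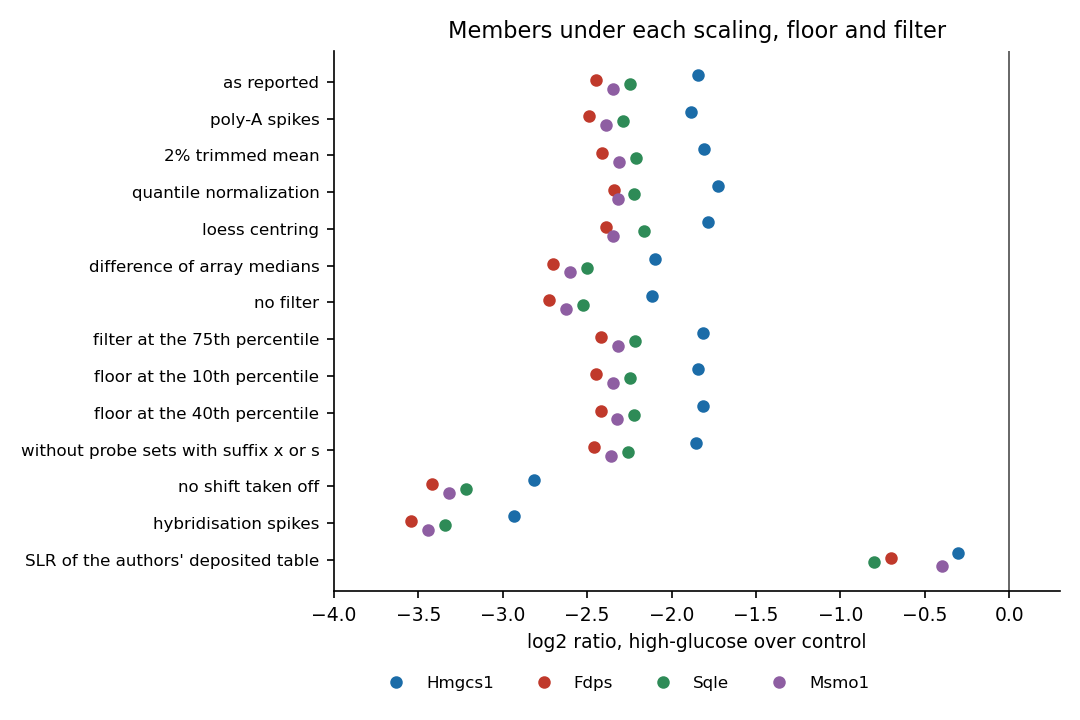
Log2 ratio of high-glucose over control for Hmgcs1, Fdps, Sqle and Msmo1 (x axis) under each scaling, floor and filter (y axis). All points are below 0, from -3.54 for Fdps scaled on the hybridisation spikes to -0.3 for the SLR of Hmgcs1.

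The 4 genes were below 0 under each scaling tried. Spike RNAs gave a scale that uses no mouse transcript. The 24 probe sets of poly-A spikes, which belong to a step before labelling, showed a median log2 ratio of -0.93, close to the shift, and scaling on them put the 4 genes between -2.49 and -1.88. The 18 probe sets of hybridisation spikes, added after labelling, had a median log2 ratio of 0.12, and scaling on them put the 4 genes between -3.54 and -2.94. Most settings take the same amount off every gene and cannot change the order of the 4 genes. Loess centring and quantile normalization can, and under both Fdps was the lowest and Hmgcs1 the highest, whereas Sqle was the lowest by SLR.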

How the data were processed

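The authors deposited intensity values made with MAS5, per the submitters' processing notes, for 22690 probe sets on each of 2 arrays, and a table of SLR values on the log2 scale, per its header, for 1625 probe sets. The sources used here do not give MAS5's version or scaling target. Symbols came from that table, with 213 updated through synonyms in RefSeq (GRCm38.p6).

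Signals were raised to a floor of 2.9, the average of both arrays' 25th percentiles. The log2 ratio was taken as high-glucose over control, and the median over expressed probe sets (mean log2 signal at or above the median of 22626 probe sets that are not controls) was subtracted. The brightest probe set stood for a gene. Ratios were computed in Python 3.11.15 with numpy 2.4.6 and tested on simulated data. With 1 array per diet no p-value or replicate error can be given, and the number of arrays limits the precision.

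Genes named are the 4 enzymes, the other named members of their pathway and of the sterol list, up to 4 examples of other lists in list order, and the 6 nearest genes. Other genes were named after their values were seen. The lists exclude 3 genes that are not reported here. The members and lists were chosen with earlier results of these data known. Alternatives were other scalings, floors, filters and thresholds, spike scaling, and the SLR.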

Additional observations from a re-analysis of the deposited data

How the results depend on the processing

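No paired analysis was possible because there is 1 array per diet, and for the same reason no array could be left out. Without the shift taken off, the log2 ratios were -2.81 for Hmgcs1, -3.42 for Fdps, -3.22 for Sqle and -3.32 for Msmo1. Scaled on the hybridisation spikes they were -2.94, -3.54, -3.34 and -3.44 in the same order, and the SLR of the authors' deposited table was -0.3, -0.7, -0.8 and -0.4. Each of these moved by more than 0.48, the SD between probe sets of a gene, and kept its sign. The remaining 10 settings stayed within it. The number of cholesterol biosynthesis genes at least 1.5-fold lower was 6 of 6 under every scaling, floor, filter and probe set rule tried. It was also 6 of 6 at 2-fold. Some settings could not lower it, because taking off no shift or scaling on hybridisation spikes only pushes the ratios down. Each gene also had a single probe set, so averaging changed nothing. The SLR was not among the settings for this count. By SLR, Fdps at -0.7, Sqle at -0.8 and Dhcr7 at -0.7 were at least 1.5-fold lower. Hmgcs1 at -0.3, Msmo1 at -0.4 and Fdft1 at -0.4 were not. The number of expressed probe sets at least 2-fold lower, 562, was 5402 with no shift taken off, 6507 on hybridisation spikes, 1071 with the difference of array medians, 2094 with no filter, 182 with a filter at the 75th percentile and 1617 at 1.5-fold. Its other 7 settings gave 473 to 632. Sqle was the dimmest of the 4 probe sets, at 14.3 on the high-glucose array against a floor of 2.9.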
